A study of Ovis aries with 6 samples.

Results

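The genes for albumin, transferrin, transthyretin, haptoglobin, fetuin-A, alpha-1-antitrypsin and 4 apolipoproteins were followed in the perirenal fat of sheep before and after birth. The list had 10 names (ALB, TF, TTR, APOE, APOA1, APOD, APOB, HP, AHSG and SERPINA1), of which 9 were found by symbol among the 24390 genes of the table. HP, haptoglobin, was not found under that name and was dropped. The list was picked because ALB and TF were higher in the lambs, so the differences between the stages are given for these 9 genes as a description, without a test.

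Perirenal fat, the depot around the kidney, came from 3 fetuses and 3 lambs, each giving 1 RNA sequencing library. All 6 animals were wild type, pure bred Merino sheep, and no treatment is recorded. The fetuses were taken at 132 days post conception (term, 150 days). The age of the lambs is given in 3 ways: 89 days old with 80 days after birth beside it, 12 weeks, and collection at about 89 ± 7 days. VEH stands in the lamb titles, and no label explains it. Adipocyte markers were plentiful in every library: the 7 of 9 marker names found summed to between 13480 and 16800 CPM (counts scaled to a common library size) in the fetuses and between 27700 and 38280 CPM in the lambs.

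Albumin carries fatty acids, hormones and bilirubin in plasma, and transferrin carries ferric iron to cells. Apolipoproteins coat lipoprotein particles and serve as ligands for their receptors. Most of these proteins in the circulation are made by hepatocytes. APOE is also made by adipocytes and macrophages, and APOD is made in many tissues outside the liver.

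Total counts ran from 15907128 to 19150428 per library, and 16345 to 16907 genes had a count. CPM values are scaled with TMM factors, which correct library sizes for differences in composition. A total of 3 counts, the limit that a count of 0 allows, corresponded to 0.157 to 0.189 CPM before that scaling and covers counting error only. Spearman correlations across genes were 0.974 to 0.982 within a stage and 0.878 to 0.906 between stages. Among the 13624 genes that passed the filter on low counts, 44.7% had an adjusted p below 0.05 in edgeR, 22.0% higher and 22.7% lower in the lambs, and 57.7% had values that did not overlap between the stages. The median log2 difference of these genes was -0.01. Of the 9 genes, 7 passed the filter and 6 of those were past that threshold, 3 higher and 3 lower. The stages did not overlap for 4 of the 7. Nothing is read from these counts, since the genes were chosen on the same contrast. In such bulk samples, fewer cells of a type and less RNA per cell cannot be told apart.

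Fetal libraries 1 and 2 stood apart in genes of other organs, as found after their values were seen. A list of pancreas genes, of which 20 of 30 names were found, summed to 2784 CPM in fetal library 1 and to between 3.43 and 5.07 CPM in the other 5 libraries. CPA1, a pancreatic carboxypeptidase, had 14819 counts there and 9 to 14 elsewhere, while PNLIP and IAPP were at 0 there. Skeletal muscle genes, 13 of 17 names found, summed to 197 CPM in fetal library 1, 30.2 and 48.2 CPM in the other fetuses and 9.24 to 22.2 CPM in the lambs. In fetal library 2 several liver genes were raised, as given with AHSG below. The values of the members are given with and without both libraries, and those of the other gene lists are given without both after the lists.

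**Figure D1:**
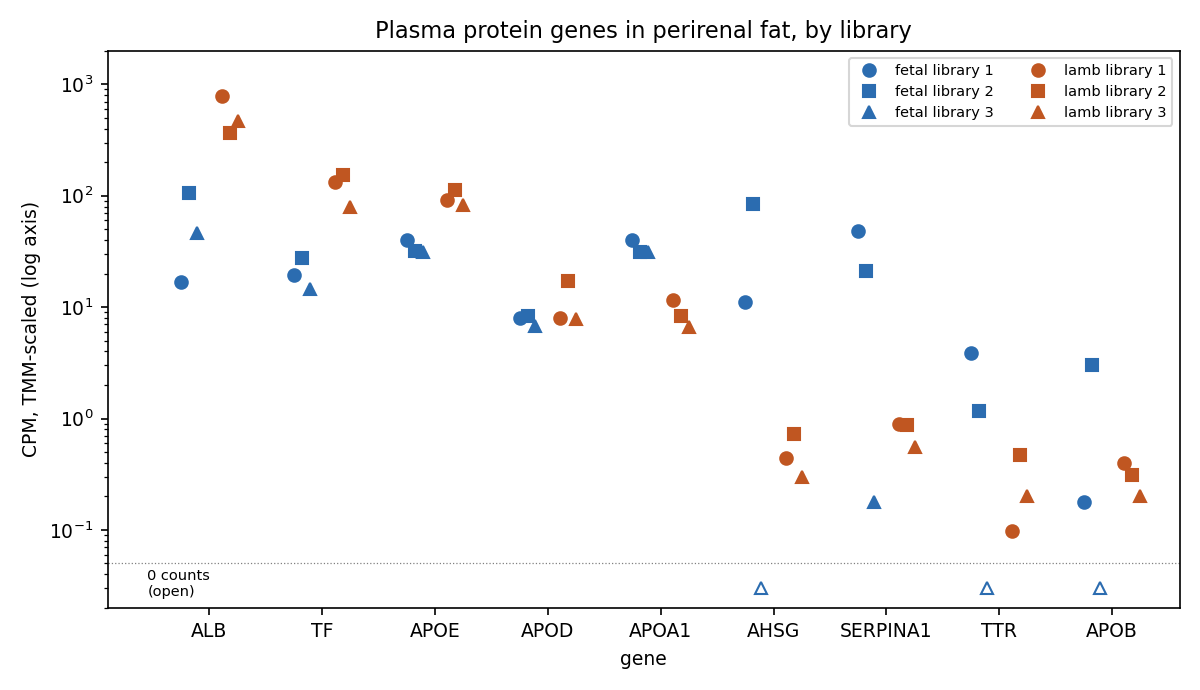
Each point is 1 library, with CPM after TMM scaling on a log axis and the 9 genes along the horizontal axis. Open symbols below the dotted line are libraries with 0 counts. ALB, TF and APOE are higher in all 3 lambs than in any fetus, APOA1 is lower in all 3, and AHSG, SERPINA1, TTR and APOB spread widely over the 3 fetuses.

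ALB (ENSOARG00000013782, chromosome 6, 88136611 to 88159187 on Oar v3.1) encodes serum albumin. Its level was 16.9, 106 and 46.2 CPM in fetal libraries 1, 2 and 3 and 793, 367 and 467 CPM in lamb libraries 1, 2 and 3. Every lamb was above every fetus, and the lowest lamb was 3.47 times the highest fetus. The means were 56.3 ± 45.2 CPM (SD, n = 3) in the fetuses and 542 ± 223 CPM (SD, n = 3) in the lambs, a log2 difference, lamb minus fetal, of 3.27 ± 0.64 (SE). Without fetal library 2, the highest of the fetuses, it was 4.10, and without fetal library 1 it was 2.83. With both left out it was 3.55. The fetal values spread 6.25-fold and the lamb values 2.16-fold.

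TF (ENSOARG00000008456, chromosome 1, 253633735 to 253672933) encodes transferrin. Counts were 322, 376 and 245 in the fetuses and 2710, 2958 and 1594 in the lambs, or 19.25, 27.7 and 14.6 CPM against 134, 154 and 79.7 CPM. The stages were well apart, with the lowest lamb at 2.88 times the highest fetus. The log2 difference was 2.58 ± 0.31 (SE), and it ran from 2.39 to 2.86 when 1 library was left out. With fetal libraries 1 and 2 both left out it was 3.06.

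APOE (ENSOARG00000009438, chromosome 14, 51709732 to 51711208), a ligand of lipoprotein receptors, had 40.3, 31.8 and 31.4 CPM in the fetuses and 91.1, 112 and 83.2 CPM in the lambs. It had the tightest values of the higher genes: the coefficient of variation was 14.6% in the fetuses and 15.4% in the lambs. The log2 difference was 1.47 ± 0.16 (SE), with 1.34 to 1.59 when 1 library was left out and 1.60 without fetal libraries 1 and 2. Macrophage markers, 11 of 12 names found, moved in the same direction between the stages. They summed to 182 to 407 CPM in the fetuses and 1300 to 1613 CPM in the lambs. Most of the lamb sum was MRC1, at 819 to 1144 CPM in the lambs and 41.9 to 69.1 CPM in the fetuses. Of the 10 tested, 7 rose, and CSF1R, C1QB and C1QC were not called. The adipocyte markers above also moved with ALB, TF and APOE, with 6 of 7 higher. The part of either cell type in these results was not tested.

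APOA1 (ENSOARG00000002586, chromosome 15, 26993181 to 26994743), the main protein of high-density lipoprotein, went the other way. It had 40.2, 31.3 and 31.1 CPM in the fetuses and 11.6, 8.30 and 6.65 CPM in the lambs. All 3 fetuses were above all 3 lambs, and the fetal libraries lay close together. The log2 difference was -1.95 ± 0.22 (SE), between -2.19 and -1.78 when 1 library was left out and -1.82 without fetal libraries 1 and 2. Fetal library 3, with 0 counts of AHSG, held 521 counts of APOA1.

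APOD (ENSOARG00000020386, chromosome 1, 190322087 to 190334583), a lipocalin that binds arachidonic acid and progesterone, had 7.95, 8.39 and 6.80 CPM in the fetuses and 8.004, 17.3 and 7.85 CPM in the lambs. Lamb library 2 was high and the other lambs lay among the fetuses. The log2 difference was 0.52 ± 0.32 (SE), 0.04 without lamb library 2, and 0.70 without fetal libraries 1 and 2.

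**Figure D2:**
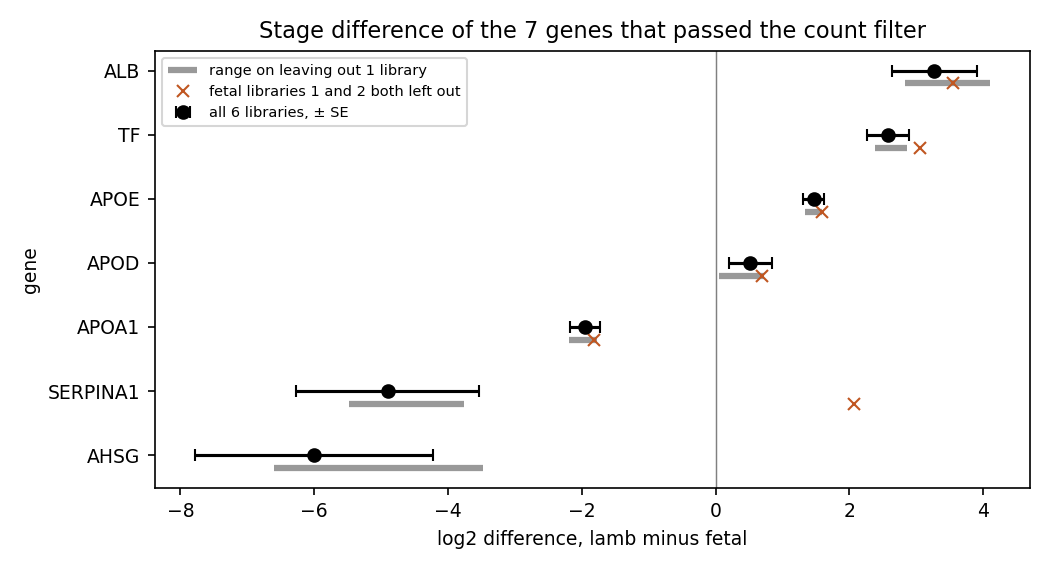
The log2 difference, lamb minus fetal, is shown for the 7 genes that passed the count filter, with the standard error as black bars, the range on leaving out 1 library as grey bars, and crosses for fetal libraries 1 and 2 both left out. The cross of AHSG is not drawn because fetal library 3 has 0 counts of it. SERPINA1 lies at -4.90 with all libraries and at 2.07 without those 2, while ALB, TF, APOE and APOA1 lie at 3.55, 3.06, 1.60 and -1.82 without them.

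AHSG (ENSOARG00000020528, chromosome 1, 198806196 to 198813239) encodes fetuin-A, a mineral-binding plasma protein that is abundant in fetal blood. Its counts were 185, 1153 and 0 in the fetuses and 9, 14 and 6 in the lambs. Fetal library 2 was far above the rest, and fetal library 3 was below every lamb, so the stages overlapped. The means were 32.0 ± 46.1 CPM (SD, n = 3) and 0.490 ± 0.217 CPM (SD, n = 3), with a log2 difference of -6.004 ± 1.78 (SE). Without fetal library 2 it was -3.47. Against fetal library 3 alone, taken at the floor of 3 counts in that library (0.179 CPM), the lamb mean was at least 2.74-fold higher.

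SERPINA1 (ENSOARG00000014882, chromosome 18, 57912144 to 57916083) encodes alpha-1-antitrypsin, the plasma inhibitor of neutrophil elastase. It had 811, 287 and 3 counts in the fetuses and 18, 17 and 11 in the lambs. The order of the fetuses differed from that of AHSG, with library 1 highest, and the ratio of AHSG to SERPINA1 counts was 0.228 in fetal library 1 and 4.02 in fetal library 2. The log2 difference was -4.90 ± 1.37 (SE), -3.76 without fetal library 1, and 2.07 with fetal libraries 1 and 2 both left out.

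TTR (ENSOARG00000006342, chromosome 23, 25838407 to 25847665), the carrier of thyroxine and of retinol-binding protein, and APOB (ENSOARG00000017402, chromosome 3, 28671825 to 28710732), the structural protein of low-density lipoprotein, did not pass the filter. TTR had 65, 16 and 0 counts in the fetuses and 2, 9 and 4 in the lambs. APOB had 3, 41 and 0 counts in the fetuses and 8, 6 and 4 in the lambs. TTR followed SERPINA1 in being highest in fetal library 1, APOB followed AHSG in being highest in fetal library 2, and both were at 0 in fetal library 3.

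Some other plasma protein genes took the same 2 patterns over the fetuses, described here after their values were seen. AMBP, the precursor of alpha-1-microglobulin, had 562, 45 and 0 counts in the fetuses and 3 to 9 in the lambs, so it was highest in fetal library 1. Highest in fetal library 2 were GC, the vitamin D-binding protein (23, 132 and 0 counts), FGA, the fibrinogen alpha chain (2, 122 and 0), and APOA2 (1, 43 and 0). CPS1, the first enzyme of the hepatocyte urea cycle, had 2, 38 and 4 counts in the fetuses. Not all plasma protein genes took these patterns: A1BG had 69, 72 and 70 counts in the fetuses, and A2M, CFB and RBP4 were highest in fetal library 3. Of 11439 genes that reached 50 counts in fetal library 1 or 2, 35 (0.306%) had 3 counts or fewer in fetal library 3. The same measure gave 35 of 11577 genes (0.302%) for fetal library 2, 6 of 11250 for fetal library 1 and 7 to 9 for each lamb library. Of the 35 genes low in fetal library 3, 9 were on the pancreas list and 6 on the skeletal muscle list, and 29 reached 50 counts in fetal library 1 and not in fetal library 2. TTR, AHSG and SERPINA1 were 3 of the 8 genes described here that reached 50 counts, and AMBP, FGA and GC were 3 of 17 in the list of other liver plasma proteins.

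Hepatocyte markers, 15 of 16 names found, summed to 1075 to 1552 CPM in the fetuses and 440 to 647 CPM in the lambs, nearly all of it ASGR1, with 8063 to 20802 counts. Of the 4 tested, 1 rose and 2 fell, and between 3 and 6 of the 15 were at 0 in each library. ASGR1, ASGR2, HAL and HNF4A were the 4 that passed the filter on low counts. The other 11 genes together held 22, 72 and 21 counts in the fetuses and 42, 36 and 18 in the lambs. That their sum is low follows from this choice. In the lambs, where ALB had 7066 to 16045 counts, AHSG had 6 to 14, GC had 3 in each library, FGA 3 to 6 and CPS1 0 to 5. These are among the genes given above that were highest in fetal library 2. Other liver genes on the lists had more counts in the lambs: RBP4 15684 to 23704, A2M 2046 to 4431, ITIH4 252 to 964, KNG1 170 to 360 and HNF4A 183 to 669. The ratio of AHSG to ALB counts, not corrected for length, was 0.654, 0.802 and 0 in fetal libraries 1, 2 and 3. It was between 0.000561 and 0.00198 in the lambs, so fetal library 3 was below every lamb. The part of pancreas or liver RNA in the fetal values of ALB, AHSG, SERPINA1, TTR and APOB was not tested. Nor was the part of liver RNA in the lamb values of ALB.

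**Figure D3:**
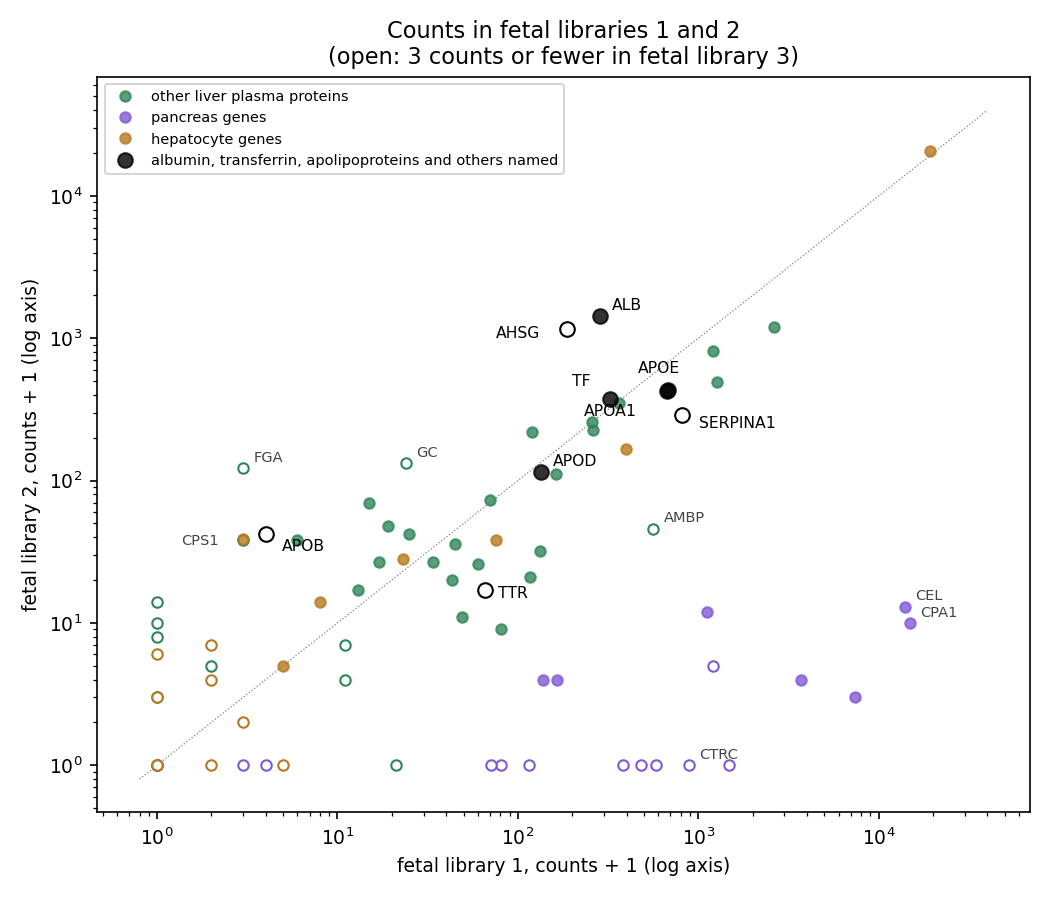
Counts plus 1 in fetal library 1 are plotted against those in fetal library 2, both on log axes, with each point a gene, the dotted line marking equal counts and open symbols marking genes with 3 counts or fewer in fetal library 3. APOA1, APOE, TF and APOD lie near the line and are filled. ALB is filled and lies above the line. AHSG, SERPINA1, TTR and APOB are open, and most of the pancreas genes lie far to the right.

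The order of levels between genes was taken per length, with the authors' mean RPKM (reads scaled by gene length and library size). The counts and count ratios set side by side above are not corrected for length. Per kilobase, AHSG was above ALB in fetal library 1 (5.16 against 1.59) and fetal library 2 (32.7 against 8.23). In the fetuses the order was APOA1 at 28.0, APOE at 23.3, AHSG at 12.6, SERPINA1 at 11.2, APOD at 6.68, TF at 6.59, ALB at 5.13, TTR at 0.834 and APOB at 0.0682. In the lambs it was APOE at 88.4, ALB at 68.8, TF at 51.1, APOD at 14.1, APOA1 at 10.0277, SERPINA1 at 0.517, AHSG at 0.322, TTR at 0.173 and APOB at 0.0422. Library by library, per kilobase, APOA1 was first in fetal libraries 1 and 3 and AHSG in fetal library 2. ALB was first in lamb library 1 and APOE in lamb libraries 2 and 3, so the order of those neighbours was not fixed. Counts and RPKM of ALB imply a length of 9.28 kilobases, against 0.936 to 2.84 for the others apart from APOB at 11.4, and a shorter transcript would raise its level per length.

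**Figure D4:**
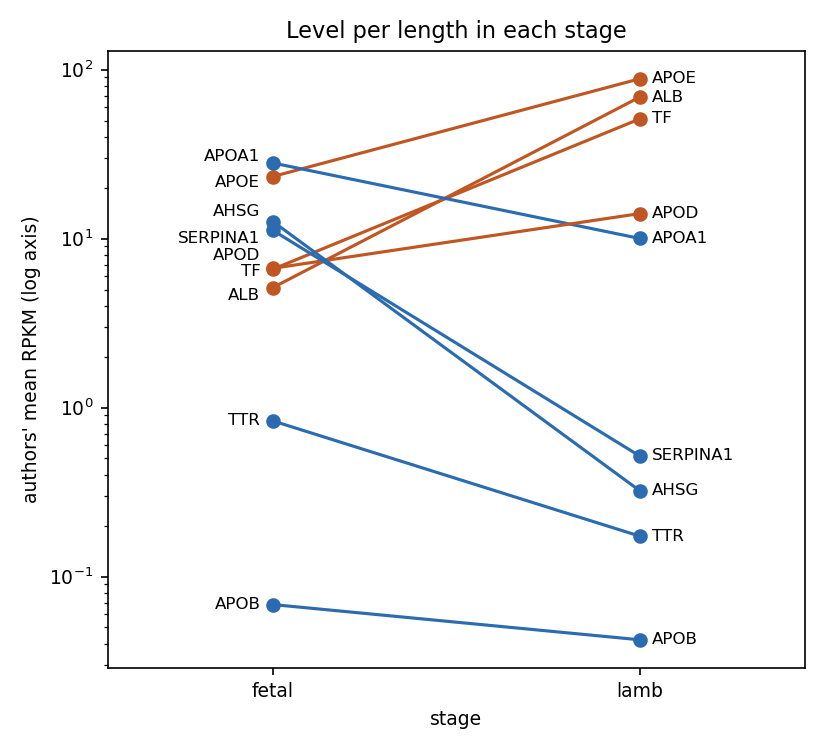
The authors' mean RPKM of each gene is shown on a log axis for the fetal and lamb stages, joined by a line that is orange where the lamb value is higher and blue where it is lower. ALB moves from 5.13 to 68.8 and from the seventh to the second place, while APOA1 moves from the first to the fifth.

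No annotated gene overlapped any of the 9 genes. Of their chromosome neighbours, BDH1, TOMM40, SIK3, B4GALT6 and FETUB were called. ANKRD17, SRPRB, DSG2, PPP1R2 and DNAJB11 were tested and not called, and the remaining neighbours were not tested. Nothing is read from these calls, since 44.7% of all genes tested were called. BDH1, the ketone body enzyme beside APOD, fell by 5.41 ± 0.48 (SE; edgeR adjusted p = 0.000176). TOMM40, a mitochondrial import receptor beside APOE, fell by 1.76 ± 0.14 (adjusted p = 0.000130), while APOE was higher in the lambs. SIK3, a kinase beside APOA1, rose by 1.79 ± 0.17 (adjusted p = 0.000214), while APOA1 was lower. B4GALT6 beside TTR fell by 1.60 ± 0.25 (adjusted p = 0.00171). AFP, the fetal albumin-like protein whose gene starts 7607 bases after ALB, had 33, 26 and 5 counts in the fetuses and 2 to 3 in the lambs. ANKRD17, on the other side of ALB, differed by -0.05 on the log2 scale and was not called. FETUB, the fetuin-B gene beside AHSG, had 59, 25 and 11 counts in the fetuses and 4, 14 and 9 in the lambs. SRPRB beside TF differed by 0.19 and was not called. DSG2, a desmosomal cadherin beside TTR, had 162, 40 and 12 counts in the fetuses and 26, 23 and 41 in the lambs, and was not called (log2 difference -1.56). Beside APOA1, APOC3 had 0 to 3 counts in every library. The profile over the 6 libraries nearest to that of ALB, by root mean square distance of centred log2 CPM among 11707 candidate genes, was that of AGPAT9 (0.58), an enzyme of triacylglycerol synthesis, followed by LPIN1 (0.65) and IL17RE (0.713). For TF the nearest were DUSP8 (0.203), MPER1 (0.263) and CX3CL1 (0.268). These distances are descriptions over 6 libraries that share the stage difference.

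The pathway lists are described by their counts, to be set beside the 22.0% of all genes tested that were higher and the 22.7% that were lower. No list was tested against other genes. Among the other apolipoproteins, 13 of 22 names were found and 5 were tested, of which 2 rose and 2 fell (median log2 difference -0.24). APOL6 rose most, from 20.1 ± 2.43 to 276 ± 76.2 CPM (SD, n = 3 each), a log2 difference of 3.78 ± 0.23 (SE; edgeR adjusted p = 5.4e-05). APOBR, a receptor for APOB48, rose by 1.33 ± 0.19 (adjusted p = 0.00118). The mitochondrial proteins APOO and APOOL fell by 0.96 and 0.73 (adjusted p = 0.0104 and 0.00694), and neither passed with library totals alone. The apolipoproteins of triglyceride-rich particles, APOA4, APOA5, APOC2 and APOC3, had at most 3 counts in any library.

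Of the other liver plasma proteins, 36 of 39 names were found and 19 tested, with 6 higher, 4 lower and a median of -0.69. The lower count was 1 without fetal library 1 and 8 without fetal library 3. RBP4, the retinol carrier that binds transthyretin in plasma, rose from 26.7 ± 5.61 to 1045 ± 202 CPM (SD, n = 3 each; log2 difference 5.29 ± 0.25, edgeR adjusted p = 3.09e-05), while TTR had 2 to 9 counts in the lambs. A2M, a broad protease inhibitor, rose by 3.15 ± 0.31 (adjusted p = 0.000258), and KNG1, kininogen, by 3.30 ± 0.69 (adjusted p = 0.00638), which was 4.75 without fetal library 1. SERPINF1, a secreted serpin made by adipocytes, rose by 1.58 ± 0.30 (adjusted p = 0.00439). FGG, the fibrinogen gamma chain, had 162, 111 and 18 counts in the fetuses and 7, 8 and 9 in the lambs. It fell by 3.94 ± 0.79 (adjusted p = 0.00542), and by 1.40 without fetal libraries 1 and 2 (adjusted p = 0.201). FETUB fell by 2.12 ± 0.69 (adjusted p = 0.0378). That gene no longer passed on leaving out any of 4 libraries, both fetal 1 and 2 and lamb 1 and 3, with adjusted p from 0.0793 to 0.141, and its difference was -1.42 without fetal library 1.

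In the transferrin cycle, 14 of 18 names gave 18 loci and 16 were tested, of which 1 rose and 4 fell (median 0.04). Those that fell numbered 2 without fetal library 1, 2 without fetal library 2, 1 without lamb library 2 and 2 without lamb library 3. TFRC, the transferrin receptor, differed by -0.13 ± 0.27 (adjusted p = 0.727), a sign that turned with library totals alone and without fetal library 1 or lamb library 3. STEAP3, the ferrireductase of the transferrin endosome, fell by 2.52 ± 0.22. ACO1, the iron-responsive aconitase, rose by 0.87 ± 0.13 (adjusted p = 0.00160). MFI2, melanotransferrin, TFR2 and HFE fell by 1.75, 1.18 and 1.09 (adjusted p = 0.0280, 0.0311 and 0.0331), and each of these calls was lost on leaving out 1 of at least 3 libraries.

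Of the lipoprotein receptors, 17 of 21 names were found and 16 tested, with 4 higher and 4 lower (median -0.13), shares near those of all genes tested. LRP1, the large receptor that binds APOE, rose from 264 ± 63.8 to 1017 ± 103 CPM (SD, n = 3 each; log2 difference 1.95 ± 0.21, adjusted p = 0.000394). SORL1, OLR1 and MSR1 rose by 2.81, 2.46 and 1.76. SCARB1, the receptor for high-density lipoprotein, fell from 161 ± 9.65 to 47.1 ± 5.20 CPM (log2 difference -1.77 ± 0.13, adjusted p = 0.000102), and VLDLR fell by 1.90.

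Of the genes for lipoprotein assembly, lipases and cholesterol efflux, 17 of 19 names were found and 14 tested, with 6 higher and 1 lower (median 0.60), the latter being 2 without lamb library 1 and 3 without lamb library 3. LCAT, which esterifies cholesterol on high-density lipoprotein with APOA1 as its activator, rose by 2.02 ± 0.14 (adjusted p = 7.6e-05). ABCG1, PCSK6 and PLTP rose by 3.13, 2.05 and 1.78. LPL, the lipase that clears circulating triglyceride, rose by 1.44 ± 0.31 (adjusted p = 0.00770), and ANGPTL4, its inhibitor, fell by 2.17. MTTP, which loads lipid onto APOB, had 1 to 3 counts in every library.

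Partners of albumin, haptoglobin, transthyretin and APOD gave 13 of 15 names and 11 tested genes, with 2 higher and 2 lower (median 0.50). FCGRT, the receptor that recycles albumin, fell from 961 ± 62.3 to 465 ± 98.9 CPM (log2 difference -1.05 ± 0.19, adjusted p = 0.00328), and B2M, its light chain, rose by 1.36. CD163, the haptoglobin-hemoglobin receptor of macrophages, rose by 1.71 ± 0.33 (adjusted p = 0.00447). BSG, a receptor reported to bind APOD, fell by 1.13 (adjusted p = 0.00604).

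Liver-enriched transcription factors gave 21 of 22 names and 13 tested genes, with 3 higher and 4 lower (median -0.05). FOXA1, NR5A2, CEBPA and NR1I3 fell by 5.27, 2.45, 1.31 and 1.28, and the call of NR1I3 was lost without fetal library 2, fetal library 3 or lamb library 2. CEBPD and NFIL3 rose by 2.29 and 1.02. HNF4A differed by 0.25 ± 0.43 (adjusted p = 0.670), and by -0.26 without lamb library 3.

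With fetal libraries 1 and 2 both left out, 15.7% of 14314 genes were called. Of 20 tested genes in the list of other liver plasma proteins, 5 were higher and 0 lower in edgeR, with 1 lower at an unadjusted p below 0.05. Among the genes named above, the log2 difference was 3.64 for APOL6, 4.99 for RBP4, 2.77 for A2M and 5.70 for KNG1. It was 1.75 for LRP1, -1.68 for SCARB1, 2.10 for LCAT and -2.22 for ANGPTL4. FGG, FETUB, APOO, APOOL, MFI2, TFR2, HFE, ACO1, OLR1, VLDLR, PLTP, LPL, CD163, B2M, BSG, FCGRT, NR1I3, NFIL3 and B4GALT6 no longer passed the threshold. The lone fetal library was assumed to vary like the lambs in that fit, so a lost call is not by itself a lost difference. FGG and FETUB moved from -3.94 to -1.40 and from -2.12 to -0.52, and LPL and B2M to 0.85 and 0.80. FCGRT, BSG, NR1I3, VLDLR and PLTP stayed near their values with all libraries, at -1.03, -1.21, -1.34, -1.76 and 1.70.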

How the data were processed

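Single-end RNA libraries were made from 6 animals, per the labels' protocols. The authors deposited counts per gene for each library and mean RPKM per stage, per the file headers. The submitters' processing notes name CLC Genomics Workbench 7.0 and the sheep assembly Oar v3.1. The sources used here do not give strand or multi-mapping settings, and 12 columns of RPKM per library were not used.

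Counts were tested with edgeR 4.0.16 in R 4.3.3 (filterByExpr, TMM, quasi-likelihood F test, Benjamini-Hochberg adjustment over all genes tested, threshold 0.05), with limma 3.58.1 and DESeq2 1.42.0 as alternatives. The code was tested on simulated data. The members and the 7 pathway and 11 marker lists were chosen with earlier results of these data known. The lists of pancreas and skeletal muscle genes were added after seeing the data. Genes named are the members, 10 fixed partners (some are not reported here), the called genes of each list with the largest differences, chromosome neighbours and nearest profiles. Replicate numbers name separate animals, and p-values set the stage difference against the spread between them.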

Additional observations from a re-analysis of the deposited data

How the results depend on the processing

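The log2 difference ran from 2.83 to 4.10 for ALB, 2.39 to 3.099 for TF, 1.34 to 1.94 for APOE and -2.19 to -1.48 for APOA1 over the 17 settings, as a description, since these genes were chosen on this contrast. With library totals alone the median of all genes was 0.463, 79.3% of calls were higher in place of 49.3%, and the calls were 5598 higher and 1459 lower against 3002 and 3093. List genes were then 38 higher and 10 lower, and TF, APOE, APOA1 and APOD differed by 3.099, 1.94, -1.48 and 1.01. TFRC and ANKRD17 turned to 0.36 and 0.42.

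With fetal replicates 1 and 2 both left out, chosen after seeing the data and with the lone fetus assumed to vary like the lambs, 2249 genes were called, 936 higher and 1313 lower. List genes called were 23, 14 higher and 9 lower. TF was at 3.06, and AHSG (6.24, fitted on 0 fetal counts and no bound), SERPINA1 (2.07), TFRC (0.26) and DSG2 (1.06) turned sign. Leaving out 1 library, APOD ran from 0.0441 (without lamb replicate 2) to 0.72, TFRC from -0.29 to 0.11 (0.06 without fetal replicate 1, 0.11 without lamb replicate 3), HNF4A from -0.26 (without lamb replicate 3) to 0.60, and SRPRB was -0.00966 without lamb replicate 3. AHSG was -2.40 with limma-voom. The cause of these changes was not tested.

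With the replicate block 5353 genes were called against 6095. The log2 CPM values of each gene were taken as deviations from its stage mean. These deviations correlated (Pearson) at 0.00327, -0.116 and 0.046 between same-numbered libraries, so the numbers were not taken to pair the animals. TTR and APOB did not pass the filter on low counts, and 0 counts in fetal library 3 allow up to 0.179 CPM.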

Other observations

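The remaining marker lists gave these values. Called genes of all marker lists are to be set beside the 22.0% higher and 22.7% lower of all genes tested. Red cell genes summed to 360 to 1276 CPM in the fetuses and 30.6 to 56.5 CPM in the lambs, and 4 of 4 tested fell. Urothelium genes summed to 57.0 to 194 CPM in the fetuses and 2.85 to 5.68 CPM in the lambs, and 8 of 9 tested fell. Schwann cell genes summed to 66.3 to 75.3 CPM and 166 to 238 CPM, with 2 of 10 higher and 1 lower. S100B alone held 94.1 to 159 CPM of the lamb sum. Fibroblast genes summed to 7613 to 15450 CPM and 8434 to 9887 CPM, with 4 of 11 higher and 1 lower.

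Endothelium genes summed to 1514 to 1899 CPM in the fetuses and 1557 to 1678 CPM in the lambs, with 1 of 6 higher and 2 lower. Kidney tubule genes summed to at most 5.86 CPM in any library, and 0 of 3 tested were called by edgeR, DESeq2 or limma-voom, with 0 at an unadjusted p below 0.05 in edgeR. Adrenal genes summed to 30.2 to 50.5 CPM over the 6 libraries, with 1 of 3 lower, and mesothelium genes to 3.65 to 14.7 CPM, with 1 of 2 lower.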
